A study of Mus musculus with 30 samples.

Results

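The genes described here encode enzymes of glycolysis. The 10 members are Hk1, Hk2, Gpi1, Pfkm, Aldoa, Aldoc, Pgam2, Eno3, Pkm and Ldha, taken by symbol from a table of 16025 mouse gene symbols, and all 10 had enough counts to be tested among 12184 genes. They were followed across 10 groups of 3 libraries from C2C12 myotubes, the multinucleated muscle cells formed when the mouse C2C12 myoblast line is differentiated in low serum.

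All cultures came from the wild-type C2C12 line, so the replicates are cultures of a single line and not animals. Control cultures received vehicle for a time the labels do not give, and the group Dgal received D-galactose, a sugar used to bring on ageing-like changes in cultured cells, at 20 mg/mL for 24 h. There were 4 red ginseng preparations. RGW, a water extract, was given at 100 µg/mL, as were SFr, the fraction that holds the saponins, and NSFr, the fraction without them, while the single saponin ginsenoside Rb2 was given at 20 µM. Each was given for 12 h alone, or for 12 h followed by D-galactose at 20 mg/mL for 24 h, which made the groups RGW_Dgal, SFr_Dgal, NSFr_Dgal and Rb2_Dgal.

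Glycolysis converts glucose to pyruvate in the cytosol. Hexokinases (Hk1, Hk2) trap glucose as glucose 6-phosphate, glucose-6-phosphate isomerase (Gpi1) turns it into fructose 6-phosphate, and phosphofructokinase (Pfkm, the muscle form) makes fructose bisphosphate in the main committed step. Aldolases (Aldoa, the muscle form, and Aldoc, best known from brain) split that sugar, phosphoglycerate mutase (Pgam2, the muscle form) and enolase (Eno3, the muscle form) prepare phosphoenolpyruvate, pyruvate kinase (Pkm) makes pyruvate, and lactate dehydrogenase (Ldha) reduces it to lactate. D-galactose enters the same route as glucose 6-phosphate after the Leloir pathway has converted it. During muscle differentiation the muscle forms Pfkm, Pgam2 and Eno3 rise with the contractile apparatus, and several glycolytic genes, Hk2 and Ldha among them, are known targets of the hypoxia-inducible factors.

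The 30 libraries held 22209306 to 30218420 expected counts, and mitochondrially encoded genes took 0.727% to 1.69% of them. The summed level of 25 contractile genes, none of which was at 0 in a whole group, had a median of 45335 CPM in control, 31886 in SFr and 34685 in SFr_Dgal, and lay between 42375 and 45028 CPM in the other groups. CPM are counts scaled to a common library size. The summed level of 12 proliferation genes had a median of 280.2 CPM in control, 159.0 in Dgal, 166.2 in SFr and 118.6 in SFr_Dgal. Of 7 fat cell markers 2 had enough counts to be tested, and Adipoq, Plin1, Cidec and Lep never exceeded 1 count in a library. The 2 tested, Pparg and Cebpa, stood at 5.39 and 14.6 CPM in control and at 6.84 and 25.0 CPM in SFr. The summed level of 6 fibroblast markers had a median of 7537 CPM in control and 7686 CPM in SFr. The contractile genes thus mark all groups as muscle, with a lower level in the 6 libraries that received SFr.

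The sequence upstream of each gene was read from RefSeq promoters (GRCm38.p6), as the 250 bases before each start. All 10 genes matched, with 19 windows between them. Both strands were searched for the core letters of the hypoxia response element (ACGTG or GCGTG) and the E-box (CACGTG, a special case of CANNTG, which also counts towards ACGTG). At least 1 hypoxia core stood in 13 of the 19 windows, from 8 members, against 38.6% of 32851 windows of all genes. Pfkm alone has 4 windows. Some windows of Aldoa and of Pfkm overlap and hold the same match, so the counts of windows are not counts of separate sites. The letters ACGTG stood in 7 windows of 5 members, Hk2, Pfkm, Aldoa, Pkm and Ldha (16.6% of all windows), and CACGTG in 2 windows, of Pfkm and Ldha (6.02%). CANNTG stood in 14 windows of 8 members (66.2% of all). A match is a description of letters and not a bound site. Hk2, which had the largest rise with SFr, and Ldha, which held the most ACGTG matches, are shown with those letters in capitals on either strand. Eno3 and Pgam2, which had the largest falls with SFr, are shown with CANNTG in capitals. The marked letters thus differ by choice between these genes. The Eno3 window holds 1 CANNTG and also 1 GCGTG match, which is left in lower case. Each window reads towards the gene's start.
Hk2, chr6:82774455-82774704, minus strand: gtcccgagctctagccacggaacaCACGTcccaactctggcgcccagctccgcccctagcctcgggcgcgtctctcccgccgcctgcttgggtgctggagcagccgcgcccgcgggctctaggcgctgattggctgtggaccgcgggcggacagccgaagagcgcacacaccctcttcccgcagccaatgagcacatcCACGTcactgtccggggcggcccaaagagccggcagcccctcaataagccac
Ldha, chr7:46845554-46845803, plus strand: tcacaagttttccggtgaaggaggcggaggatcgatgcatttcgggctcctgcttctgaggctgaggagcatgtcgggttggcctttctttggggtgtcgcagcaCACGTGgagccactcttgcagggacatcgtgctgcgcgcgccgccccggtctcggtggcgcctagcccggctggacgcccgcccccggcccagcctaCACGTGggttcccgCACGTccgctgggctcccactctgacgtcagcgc
Pgam2, chr11:5803797-5804046, minus strand: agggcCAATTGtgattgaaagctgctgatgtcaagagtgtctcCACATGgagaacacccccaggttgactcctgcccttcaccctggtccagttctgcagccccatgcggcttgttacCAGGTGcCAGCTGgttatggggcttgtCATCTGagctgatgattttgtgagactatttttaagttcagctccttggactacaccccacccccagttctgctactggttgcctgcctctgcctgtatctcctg
Eno3, chr11:70656926-70657175, plus strand: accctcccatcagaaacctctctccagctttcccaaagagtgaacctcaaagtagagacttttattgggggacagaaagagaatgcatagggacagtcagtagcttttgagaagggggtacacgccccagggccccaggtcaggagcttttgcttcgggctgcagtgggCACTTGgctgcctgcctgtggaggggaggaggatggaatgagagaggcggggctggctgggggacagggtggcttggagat

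Per unit of length aldolase A was the most abundant member, and for 4 of the enzymatic steps the muscle form held most of the messenger in control myotubes. To compare genes, CPM were divided by the length in kilobases of the union of a gene's exons (CPM per kb, GENCODE vM21 on GRCm38). Aldoa (chr7:126795234-126800751) stood at 943.0 ± 30.2 CPM per kb in control (SD, n = 3) and Aldoc (chr11:78322968-78327781) at 2.24 ± 0.237, and Eno3 (chr11:70657202-70662513) and Pkm (chr9:59656368-59679375) stood at 528.1 ± 30.9 and 527.2 ± 17.7. With the longest transcript as length, tried after these values were seen, Aldoa stood at 1772 CPM per kb, Pkm at 1084, Ldha at 687.2 and Eno3 at 587.2, so the order below Aldoa depends on the length used. Aldoc made up 0.237% of the aldolase level. Among phosphofructokinases, Pfkm (chr15:98092589-98132451) held 81.7% ± 0.635 of the level summed over Pfkm, Pfkl and Pfkp. Eno3 held 70.5% ± 0.711 of the enolase level beside Eno1 and Eno2. The 4 steps are aldolase, phosphofructokinase, enolase and lactate dehydrogenase, where Ldha (chr7:46841475-46855627), widely regarded as the muscle form, held 96.1% ± 0.215 beside Ldhb. For phosphoglycerate mutase the muscle form was the smaller part: Pgam2 (chr11:5801640-5803733) held 27.3% ± 2.26 beside Pgam1. The hexokinases were near parity, with Hk2 (chr6:82725025-82774454) at 48.9% ± 0.796 of the sum with Hk1 (chr10:62268855-62379908). With the longest transcript as length Hk2 held 34.2%, Eno3 50.7% and Aldoc 0.148%, so these shares depend on the length used.

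The members differ in how surely their counts can be assigned. Hk1, Hk2, Pfkm, Aldoc, Pgam2 and Eno3 had no near copy, taken as a match of at least 90% identity over 300 bases to another annotated transcript. Ldha had 11, Pkm 6, Aldoa 3 and Gpi1 (chr7:34201330-34230336) 1, mostly pseudogenes, and RSEM divides reads that fit several genes. Of these copies Aldoart1 had a row in the table, with a mean of 9.36 counts per library against 78220 for Aldoa. Exons of Hk1, Gpi1, Pfkm, Aldoa and Pkm overlap those of another gene by 18 to 767 bases, and no label states the strand setting of the counting. The table is per gene, so the alternative splice forms of Pkm were not separated.

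The 10 genes together took 0.914% ± 0.0366 of all counts in control and 1.05% ± 0.0205 in Dgal (SD, n = 3). In the groups without D-galactose the share was 0.954% ± 0.0155 in RGW, 0.957% ± 0.0272 in SFr, 0.967% ± 0.0219 in NSFr and 0.935% ± 0.0211 in Rb2. In the groups with D-galactose after a preparation it was 1.02% ± 0.0488 in RGW_Dgal, 1.07% ± 0.0224 in SFr_Dgal, 1.05% ± 0.0145 in NSFr_Dgal and 1.03% ± 0.0191 in Rb2_Dgal. Each of the 5 groups with D-galactose had a higher mean share than each of the 5 without it. The combinations were harvested later than the preparations alone, and the vehicle time is not given. D-galactose and harvest time thus cannot be told apart in these shares. In bulk RNA, more messenger per cell and more cells of a kind that expresses a gene cannot be told apart.

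**Figure D1:**
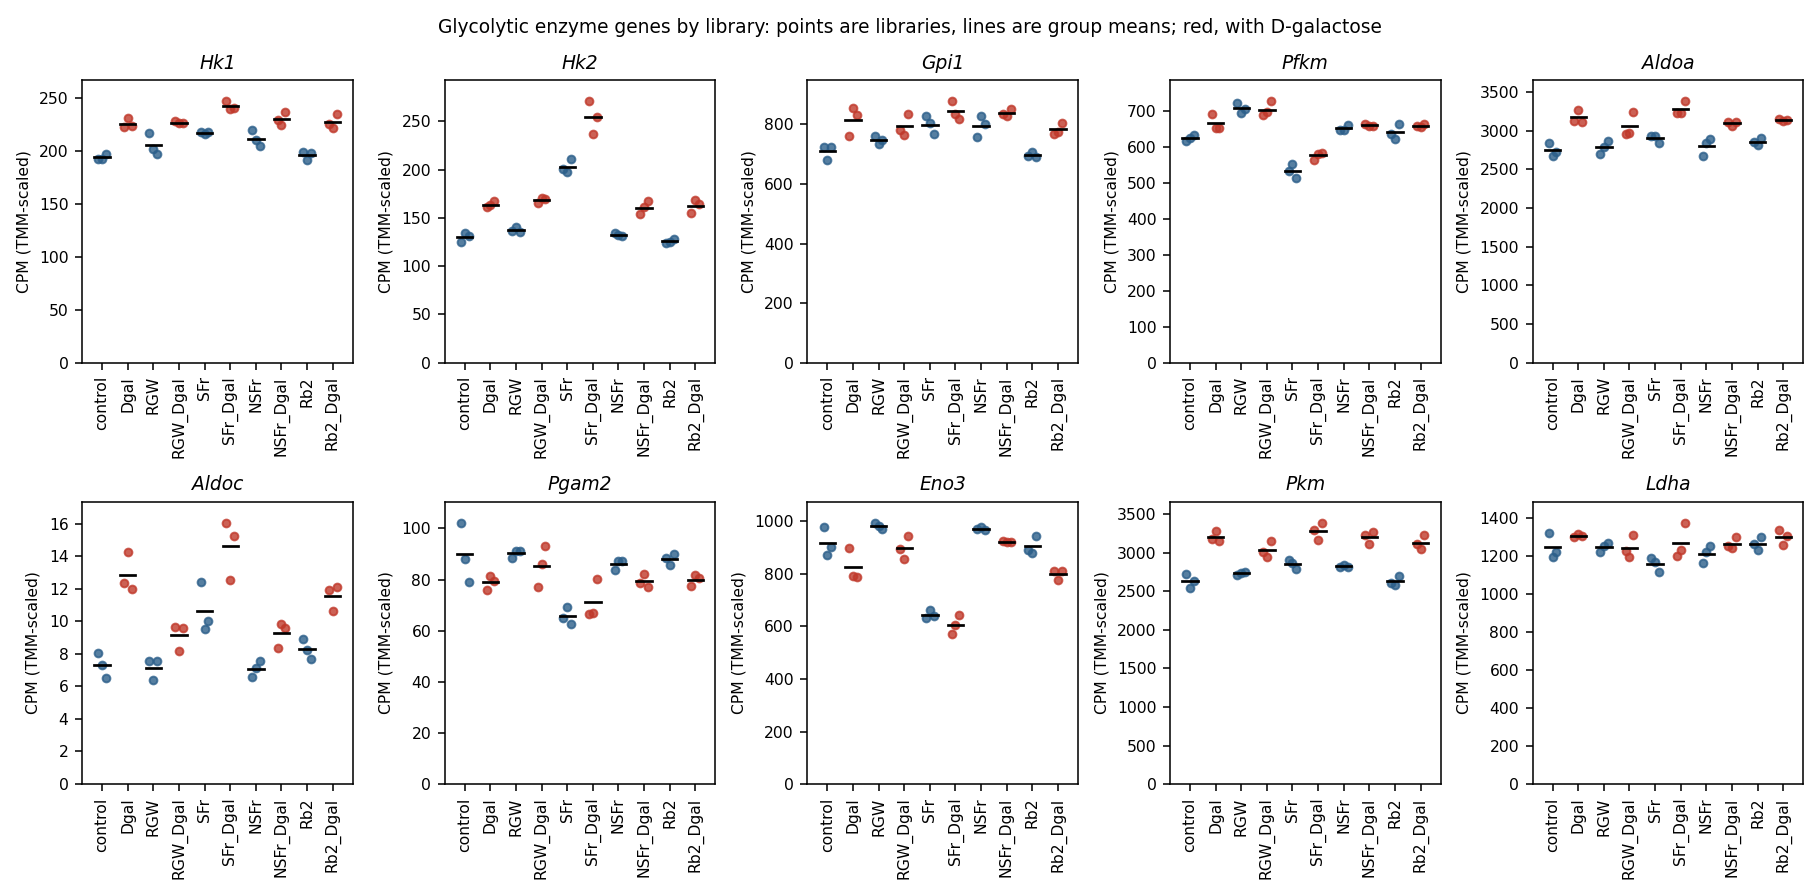
Scaled CPM of each glycolytic enzyme gene (y axis, from 0) in the 10 groups (x axis), with 1 point per library, a line at the group mean and the groups that received D-galactose in red. Hk2 is highest in SFr_Dgal and SFr, Eno3 and Pfkm are lowest in these groups, and Aldoc has the largest relative rise with D-galactose.

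To see how the pathway differed with D-galactose, Dgal was compared with control. The labels give no time for vehicle, so D-galactose and any difference in culture time cannot be told apart here. Most of the pathway was higher in Dgal, where 7 of the 10 genes rose (Hk1, Hk2, Gpi1, Pfkm, Aldoa, Aldoc and Pkm). Of the others 1 fell (Eno3) and 2 (Pgam2 and Ldha) did not pass the test. The rises were small in size, from 6.43% for Pfkm to 25.9% for Hk2, apart from Aldoc, which rose by 74.8%. The test was edgeR's quasi-likelihood test with Benjamini-Hochberg adjustment over 12184 genes, and a gene was called at an adjusted p under 0.05. By the same rule 25.1% of all genes tested were called, 11.9% higher and 13.1% lower. The median log2 fold change was 0.20 over the 10 genes and -0.0042 over all genes. Beside these differences, all 12 proliferation genes were lower in Dgal, and mitochondrially encoded genes took 1.49% ± 0.183 of the counts in Dgal and 0.908% ± 0.211 in control (SD, n = 3). Their part in the enzyme differences was not tested.

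At the entry of the pathway, Hk2, the insulin-responsive hexokinase of muscle, stood at 126, 134 and 131 CPM in the 3 control libraries and at 161, 163 and 167 CPM in Dgal. Every Dgal library lay above every control library, and the log2 fold change was 0.33 ± 0.041 (SE, edgeR adjusted p = 1.75e-07, n = 3 per group). Hk1, the housekeeping hexokinase, stood at 192, 193 and 197 CPM in control and at 223, 231 and 223 CPM in Dgal. Its libraries did not overlap either (0.22 ± 0.034, edgeR adjusted p = 1.18e-05). Gpi1, the isomerase, rose by 14.9%, from 709.8 ± 25.1 to 815.6 ± 49.9 CPM (SD, n = 3, edgeR adjusted p = 0.000456). Pfkm rose by 0.09 ± 0.033 on the log2 scale (edgeR adjusted p = 0.0402), a call that was lost without control replicate 1 (0.10), control replicate 2 (0.0748) or Dgal replicate 1 (0.177), with only the groups compared (0.124) and with no filter on low counts (0.0510).

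At the aldolase step, Aldoc stood at 8.08, 7.29 and 6.53 CPM in control and at 12.3, 14.3 and 12.0 CPM in Dgal. All 3 Dgal libraries were well above the highest control library, although the gene is read from few counts (152 in the lowest of the 30 libraries). Its log2 fold change was 0.81 ± 0.11 (edgeR adjusted p = 1.2e-06, n = 3 per group), with a 95% interval of 0.58 to 1.03. Aldoa, the bulk of the aldolase messenger, stood at 2841, 2669 and 2725 CPM in control and at 3128, 3270 and 3118 CPM in Dgal. The groups did not overlap, and Aldoa rose by 15.6% (0.21 ± 0.036, edgeR adjusted p = 4.01e-05). Measured per length, the Aldoc share of the aldolase level went from 0.237% ± 0.0206 in control to 0.360% ± 0.0247 in Dgal (SD, n = 3).

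Among the later enzymes Pkm rose and the muscle forms did not. Pkm, which makes pyruvate, stood at 2725, 2548 and 2637 CPM in control and at 3182, 3279 and 3158 CPM in Dgal, and rose by 21.6% (0.28 ± 0.033, edgeR adjusted p = 8.76e-08). The Pkm libraries of the groups did not overlap. Eno3, the muscle enolase, stood at 978.0, 873.9 and 903.4 CPM in control and at 899.8, 792.3 and 788.7 CPM in Dgal. The highest Dgal library lay above the lowest control library, and Eno3 fell by 0.15 ± 0.046 on the log2 scale (edgeR adjusted p = 0.0139). That call was lost without control replicate 1 (0.157), Dgal replicate 2 (0.107) or Dgal replicate 3 (0.112), with only the groups compared (0.0781) and with unscaled library totals (0.0579). Pgam2, the muscle mutase, stood at 102, 88.1 and 79.2 CPM in control and at 75.9, 81.3 and 79.5 CPM in Dgal. Its libraries overlapped and the difference did not pass (-0.19 ± 0.073, edgeR adjusted p = 0.0585), but without control replicate 3 it did (-0.27, 0.00629), as in DESeq2 (0.0461). Ldha stood at 1247 ± 68.1 CPM in control and 1309 ± 8.76 CPM in Dgal (SD, n = 3), a log2 difference of 0.07 with a 95% interval of -0.019 to 0.16 that did not pass (edgeR adjusted p = 0.256).

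The D-galactose comparison was repeated after each preparation, against the preparation alone. Hk1, Hk2, Aldoa, Aldoc and Pkm were called higher in all 5 comparisons, with vehicle and with each of the 4 preparations as baseline. The share of all genes called higher in all 5 was not counted. After RGW 5 of the 10 genes rose and none fell (15.2% of all genes called, 6.3% higher and 8.93% lower), and after NSFr again 5 and none (12.7%, 5.76% higher and 6.98% lower). After SFr 7 rose and none fell (19%, 8.46% higher and 10.5% lower), with Pfkm and Ldha besides the shared 5, and after Rb2 6 rose, with Gpi1, and Eno3 fell (21%, 9.81% higher and 11.2% lower). The labels give 12 h for the preparations alone and 12 h followed by 24 h for the combinations, so D-galactose and the later harvest cannot be told apart in these 4 comparisons.

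The rise of Hk2 was 22.2% with RGW as baseline, 25.2% with SFr, 21.2% with NSFr and 29.5% with Rb2, beside 25.9% with vehicle. Its log2 differences thus lay within 0.28 to 0.37 on all 5 baselines. In SFr_Dgal the Hk2 libraries reached 271, 237 and 254 CPM, against 200.3, 198 and 211 CPM in SFr, the highest levels of this gene in the series. Pkm rose by between 0.15 and 0.28 on the log2 scale, Hk1 by between 0.12 and 0.22 and Aldoa by between 0.13 and 0.21. The Aldoc differences were 0.81 ± 0.11 with vehicle, 0.35 ± 0.11 with RGW, 0.46 ± 0.097 with SFr, 0.39 ± 0.11 with NSFr and 0.48 ± 0.11 with Rb2 as baseline. The Aldoc call after RGW was lost without RGW replicate 2 (edgeR adjusted p = 0.160), RGW_Dgal replicate 1 (0.0944) or RGW_Dgal replicate 3 (0.105), and after NSFr without NSFr replicate 1 (0.0864), NSFr replicate 2 (0.0567), NSFr_Dgal replicate 2 (0.0948) or NSFr_Dgal replicate 3 (0.0666).

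Eno3, Ldha and Pfkm were called on some of these baselines. Eno3 fell after Rb2 by 0.18 ± 0.046 on the log2 scale, from 906.1 ± 34.7 to 798.9 ± 20.2 CPM (edgeR adjusted p = 0.00434, SD, n = 3), and its difference was negative but not called after RGW, SFr and NSFr. After RGW the Eno3 call was made without RGW_Dgal replicate 3 (-0.16, 0.0269). Ldha rose after SFr from 1160 ± 37.8 to 1270 ± 94.4 CPM (0.13 ± 0.044, edgeR adjusted p = 0.0315). The Ldha call was lost without SFr replicate 2 (0.0561), SFr replicate 3 (0.148) or SFr_Dgal replicate 3 (0.299). Pfkm rose after SFr by 8.01% (edgeR adjusted p = 0.0141), a call lost without SFr replicate 3 (0.0981) or with only those groups in the fit (0.0856). Calls were also lost for Hk1 after NSFr without NSFr replicate 2 (0.0515), NSFr replicate 3 (0.0957) or NSFr_Dgal replicate 3 (0.0843), and for Aldoa after NSFr without NSFr replicate 1 (0.0659) and after RGW without RGW replicate 1 (0.0682) or RGW_Dgal replicate 3 (0.108). Pgam2 was called on none of the 5 baselines by edgeR's test over all groups, with differences from -0.19 to 0.12, but with only the compared groups in the fit it was called lower after NSFr (0.0421) and Rb2 (0.00748).

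Whether the response to D-galactose differed between the preparations and vehicle was tested by interaction terms. Each term, and the joint test, also holds the later harvest of the combinations, and the labels give no time for vehicle. A difference in the response thus cannot be told apart from one in harvest time. None of the 10 genes passed for RGW, SFr, NSFr or Rb2 in edgeR's test, nor in the joint test over all 5 baselines, and DESeq2 called none either. The share of all genes called was 0% for RGW, 0.583% for SFr, 0.041% for NSFr, 0% for Rb2 and 0.796% for the joint test. At an unadjusted p under 0.05, 3 of the genes passed for RGW, 3 for SFr, 3 for NSFr, 1 for Rb2 and 0 in the joint test. The share of all genes at that unadjusted level was not counted. The shares above are for adjusted p and cannot be set beside these numbers. For Aldoc the interaction, the log2 difference with D-galactose after the preparation minus that after vehicle, was -0.45 with RGW (95% interval -0.77 to -0.13, edgeR adjusted p = 0.332). It was -0.35 with SFr (-0.65 to -0.047, 0.301), -0.42 with NSFr (-0.74 to -0.094, 0.597) and -0.33 with Rb2 (-0.64 to -0.014, 0.960). These 4 terms share the Dgal and control libraries. For Pgam2 the interaction with SFr was 0.31 (95% interval 0.096 to 0.53, edgeR adjusted p = 0.174), and without control replicate 3 it passed (0.39, 0.0375).

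**Figure D2:**
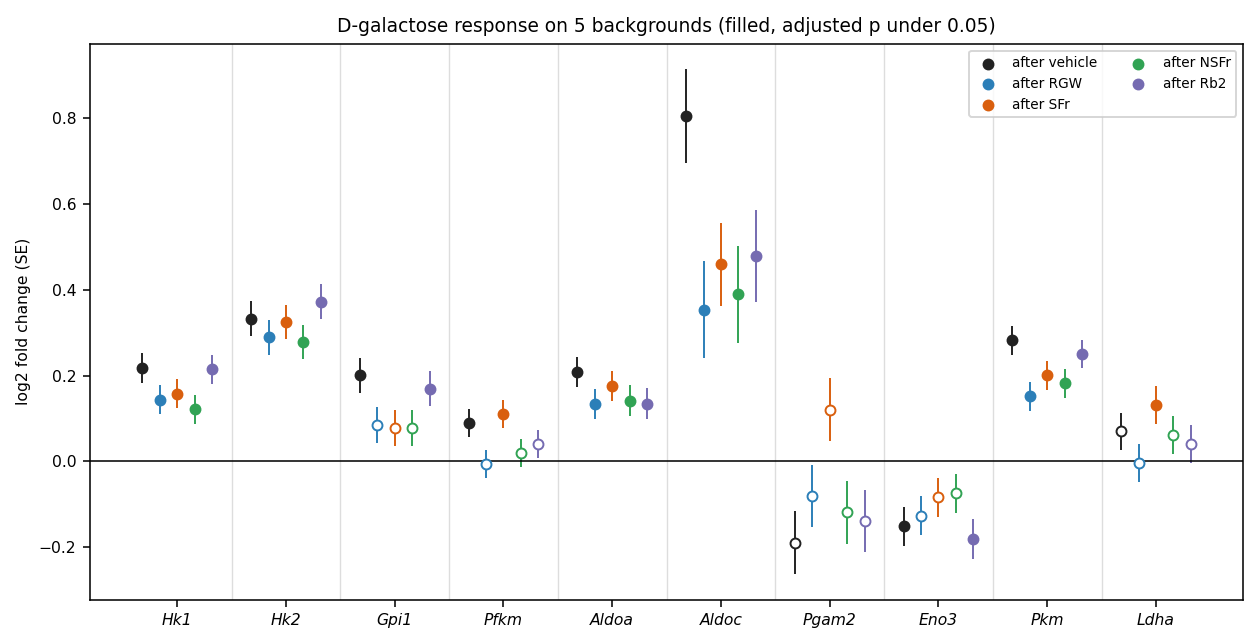
Log2 fold change with D-galactose (y axis, bars are 1 SE) of each gene (x axis) after vehicle or after each of the 4 preparations, from edgeR; filled points have an adjusted p under 0.05. Hk1, Hk2, Aldoa, Aldoc and Pkm are filled and above 0 on all 5 baselines, and Aldoc after vehicle is the highest point at 0.81.

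With the saponin fraction alone the pathway differed from control in both directions. SFr was given for 12 h and the vehicle time is not given, so treatment and culture time cannot be told apart. Against control, 5 genes rose with SFr (Hk1, Hk2, Gpi1, Aldoc and Pkm), 3 fell (Pfkm, Pgam2 and Eno3), and Aldoa and Ldha did not pass. The 3 that fell are muscle forms of their steps, but not all muscle forms fell. Aldoa and Ldha, also described as muscle forms, did not pass, and Hk2, the insulin-responsive hexokinase of muscle, rose. SFr changed much of the transcriptome, with 43.1% of all genes called, 21.3% higher and 21.8% lower, so the number of members called is read against that. The median log2 difference was 0.10 over the 10 genes and 0.0005 over all genes.

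Hk2 stood at 200.3, 198 and 211 CPM in the SFr libraries, against 126, 134 and 131 CPM in control. All SFr libraries were far above control, and Hk2 rose by 56% (0.64 ± 0.040, edgeR adjusted p = 3.4e-15, n = 3 per group). Per length its share of the hexokinase level went from 48.9% ± 0.796 in control to 57.2% ± 0.734 in SFr (SD, n = 3). Hk1 rose less, by 12% (0.16 ± 0.034, edgeR adjusted p = 0.000171), and Gpi1 by 12.6% (edgeR adjusted p = 0.000934). Aldoc stood at 12.4, 9.53 and 10.0 CPM in SFr, above its 3 control libraries, and rose by 45.5% (edgeR adjusted p = 0.000132). Pkm rose by 8.41% (edgeR adjusted p = 0.00459), a call lost without control replicate 2 (0.0565).

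Eno3 stood at 631.2, 662.9 and 638.1 CPM in SFr, against 978.0, 873.9 and 903.4 CPM in control. The highest SFr library lay below the lowest control library, and Eno3 fell by 0.51 ± 0.046 on the log2 scale (edgeR adjusted p = 2.41e-11). Its share of the enolase level per length was 70.5% ± 0.711 in control and 61.9% ± 0.321 in SFr (SD, n = 3). Pgam2 stood at 64.9, 69.2 and 62.7 CPM in SFr, all below its control libraries, and fell by 0.46 ± 0.073 on the log2 scale (edgeR adjusted p = 1.24e-05). Pfkm stood at 533.4, 552.8 and 513.8 CPM in SFr against 615.5, 625.1 and 633.3 CPM in control. These groups did not overlap, and Pfkm fell by 0.23 ± 0.033 on the log2 scale (edgeR adjusted p = 5.22e-07). The contractile genes moved with these muscle forms: 22 of 25 were called lower with SFr and none higher, with a summed level of 30260 to 31941 CPM in SFr and 43410 to 47081 CPM in control. Of the 12 proliferation genes, 11 were lower and 1 higher. Of 11 myogenic regulators 6 were lower and 2 higher, and their summed level had a median of 3245 CPM in control and 2225 CPM in SFr. Of 5 fibroblast markers tested, Dcn (1.32), Pdgfra (0.56) and Col3a1 (0.09, log2 differences) were higher and Col1a1 (-0.90) lower, and both tested fat cell markers, Cebpa (0.78) and Pparg (0.34), were higher. The part of these marker genes in the fall of Pfkm, Pgam2 and Eno3 was not tested.

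Aldoa and Ldha came close to the threshold with SFr. Aldoa stood at 2905 ± 55.4 CPM in SFr and 2745 ± 87.9 CPM in control (SD, n = 3), a log2 difference of 0.08 (95% interval 0.0095 to 0.15, edgeR adjusted p = 0.0618). It passed without control replicate 1 (0.0180) or SFr replicate 3 (0.0468). Ldha stood at 1160 ± 37.8 CPM in SFr and 1247 ± 68.1 CPM in control, a log2 difference of -0.10 (95% interval -0.19 to -0.016, edgeR adjusted p = 0.0520), and it passed without control replicate 2 (0.0217), with RLE scaling (0.0478) or with the replicate number as a block (0.0454). With unscaled library totals Aldoa passed (0.00419).

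The other 3 preparations moved few members. RGW was called for 1 gene, Pfkm, which rose (3.21% of all genes called, 2.04% higher and 1.17% lower). NSFr was called for 2 genes, Gpi1 and Hk1, both higher (8.08% of all genes, 4.56% higher). Rb2 was called for none of the 10, none of them had an unadjusted p under 0.05 and DESeq2 called none (1.53% of all genes called by edgeR). All 4 comparisons share the control libraries, so the unstated vehicle time limits each of them.

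Pfkm stood at 720.4, 693.5 and 705.3 CPM in RGW, above all 3 control libraries, and rose by 13.1% (0.18 ± 0.033, edgeR adjusted p = 0.00121), a call lost with only RGW and control in the fit (0.0516). With RGW the muscle phosphofructokinase was thus higher than control, while with SFr it was lower. Gpi1 rose by 12% with NSFr (edgeR adjusted p = 0.0109) and Hk1 by 9.16% (0.0169). The Gpi1 call was lost without control replicate 2 (0.0764) or NSFr replicate 2 (0.0801), and the Hk1 call without control replicate 1 (0.0519), control replicate 2 (0.0581) or NSFr replicate 1 (0.104). Both calls were also lost with only NSFr and control in the fit (Gpi1 0.0561, Hk1 0.0865). Pkm differed by 7.13% with NSFr and did not pass (edgeR adjusted p = 0.0589), except without control replicate 1 (0.0323), with unscaled library totals (0.0296), with the replicate block (0.0496) or in DESeq2 (0.0314). For Rb2 the 10 log2 differences ran from -0.049 to 0.17, and the outermost bounds of their 95% intervals were -0.18 and 0.41, both of which belong to low-count or variable genes (Pgam2 and Aldoc).

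**Figure D3:**
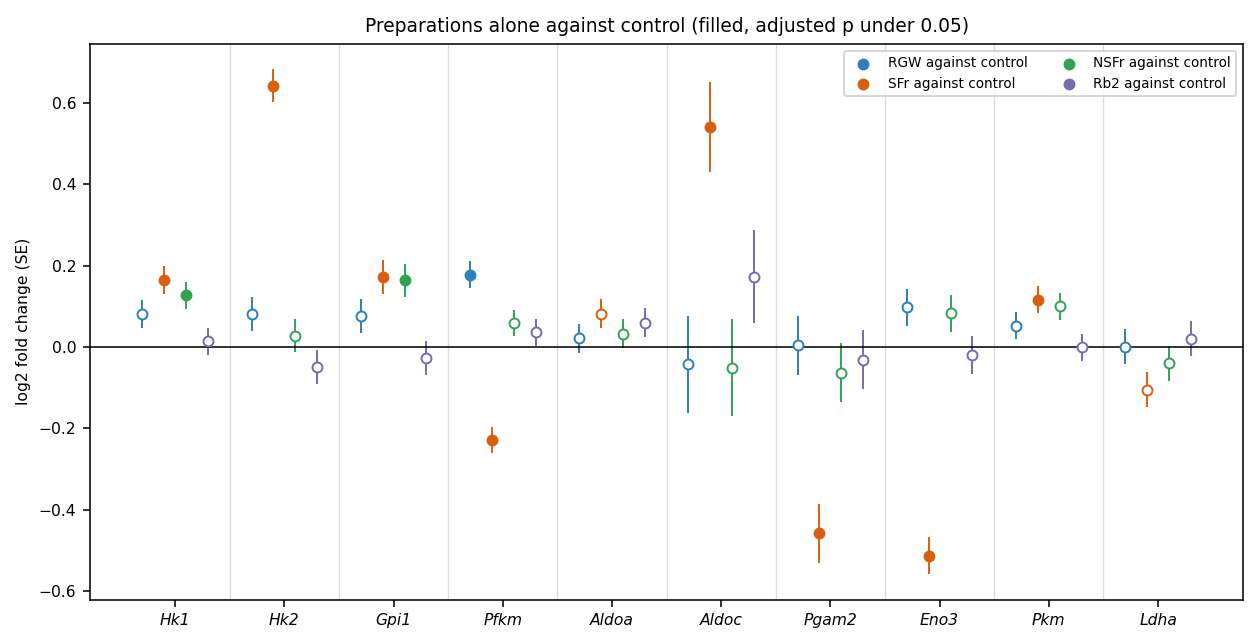
Log2 fold change of each gene (x axis) with RGW, SFr, NSFr or Rb2 alone against control (y axis, bars are 1 SE) from edgeR; filled points have an adjusted p under 0.05. SFr has Hk2 at 0.64 and Eno3 at -0.51 at the ends of the range, and the points of the other 3 preparations lie between -0.063 and 0.18.

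Pretreated cultures were then compared with D-galactose alone, at the same D-galactose dose and time. The labels give the Dgal group no 12 h step before D-galactose. Pretreatment and any difference in culture time thus cannot be told apart in these comparisons. SFr pretreatment again raised Hk2 and lowered Eno3 and Pfkm. Of the 10 genes 2 rose (Hk1 and Hk2) and 2 fell (41.3% of all genes called, 20.3% higher and 21% lower). That count is near the share of all genes called. RGW pretreatment lowered Aldoc alone among the 10 (5.06% of all genes called, 2.52% higher and 2.54% lower). NSFr pretreatment lowered Aldoc and raised Eno3 (6.33%, 2.82% lower and 3.5% higher). Rb2 pretreatment was called for none of the 10, with none at an unadjusted p under 0.05 and none by DESeq2 (2.26% of all genes called by edgeR, 1.16% higher and 1.1% lower). The 4 comparisons share the Dgal libraries.

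Hk2 stood at 271, 237 and 254 CPM in SFr_Dgal and at 161, 163 and 167 CPM in Dgal. The groups did not overlap, and the rise was 55.2% (0.63 ± 0.040, edgeR adjusted p = 4.14e-15). Per length Hk2 held 59.9% ± 1.25 of the hexokinase level in SFr_Dgal and 50.9% ± 0.733 in Dgal (SD, n = 3). Eno3 stood at 571.9, 604.8 and 645.4 CPM in SFr_Dgal, all below the Dgal libraries, and fell by 0.45 ± 0.046 on the log2 scale (edgeR adjusted p = 7.9e-10). Pfkm fell by 0.21 ± 0.033 on the log2 scale (edgeR adjusted p = 3.39e-06), from 664.8 ± 23.1 to 576.0 ± 10.4 CPM. Hk1 rose by 7.46% (edgeR adjusted p = 0.0134), a call lost without Dgal replicate 1 (0.0561) or Dgal replicate 3 (0.0584). Pgam2 differed by -0.15 and did not pass (95% interval -0.30 to 0.0056, edgeR adjusted p = 0.117), except without SFr_Dgal replicate 3 (-0.24, 0.0125). Contractile genes moved here too, with 16 of 25 lower than in Dgal and none higher, and 34224 to 36760 CPM in SFr_Dgal against 41856 to 42957 CPM in Dgal. Dcn (1.12), Pdgfra (0.53), Cebpa (0.95) and Pparg (0.25) were higher and Col1a1 (-0.90) lower on the log2 scale, and 6 myogenic regulators were lower and 3 higher. The part of these marker genes in the enzyme differences was not tested.

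Aldoc stood at 9.64, 8.20 and 9.58 CPM in RGW_Dgal and at 8.36, 9.85 and 9.59 CPM in NSFr_Dgal, against 12.3, 14.3 and 12.0 CPM in Dgal. All 6 pretreated libraries lay below the lowest Dgal library. Aldoc fell by 0.49 ± 0.11 on the log2 scale with RGW (edgeR adjusted p = 0.00354) and by 0.47 ± 0.10 with NSFr (0.00584), and the NSFr call was lost without Dgal replicate 2 (-0.38, 0.0574). With SFr the difference was 0.19 (95% interval -0.0033 to 0.39, edgeR adjusted p = 0.11), which passed without Dgal replicate 2 (0.0463) or SFr_Dgal replicate 2 (0.0186). With Rb2 Aldoc differed by -0.15 (95% interval -0.36 to 0.054, edgeR adjusted p = 0.623). Eno3 was 11.7% higher in NSFr_Dgal than in Dgal (0.16 ± 0.046, edgeR adjusted p = 0.0314). This Eno3 call was lost without Dgal replicate 2 (0.154), Dgal replicate 3 (0.164) or NSFr_Dgal replicate 1 (0.0841), 2 (0.0798) or 3 (0.0782). With RGW Eno3 differed by 0.12 (95% interval 0.028 to 0.21, edgeR adjusted p = 0.130), and it passed without Dgal replicate 1 (0.18, 0.0202).

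**Figure D4:**
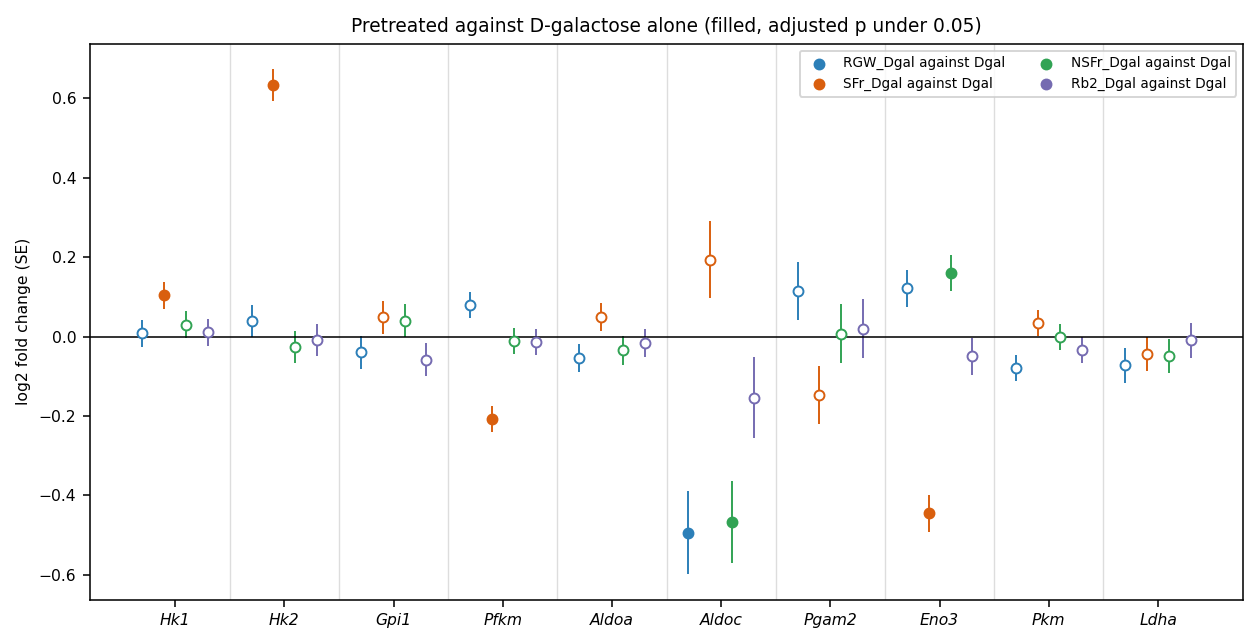
Log2 fold change of each gene (x axis) in cultures pretreated with RGW, SFr, NSFr or Rb2 before D-galactose, against D-galactose alone (y axis, bars are 1 SE), from edgeR; filled points have an adjusted p under 0.05. Hk2 with SFr stands at 0.63, Eno3 with SFr at -0.45, and Aldoc with RGW and NSFr at -0.49 and -0.47.

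The saponin and non-saponin fractions, given at the same dose and time, differed in 5 of the 10 genes without D-galactose and in 4 with it. Both counts are near the share of all genes called, so they do not set the enzymes apart from other genes. Hk2 and Aldoc were higher and Pfkm, Pgam2 and Eno3 lower with SFr than with NSFr (40.4% of all genes called, 20.8% higher and 19.6% lower). With D-galactose the calls were Hk2 and Aldoc higher and Pfkm and Eno3 lower (41%, 20.7% higher and 20.3% lower). Hk2 was 53.1% higher without D-galactose (edgeR adjusted p = 9.26e-15) and 58.1% higher with it (1.14e-15). Aldoc was 50.7% higher without D-galactose (edgeR adjusted p = 3.96e-05) and 58.2% higher with it (1.47e-06). Eno3 differed by -0.59 ± 0.046 (edgeR adjusted p = 6.03e-13) and -0.60 ± 0.046 (4.48e-13), and Pfkm by -0.29 ± 0.033 and -0.20 ± 0.033. Pgam2 differed by -0.39 ± 0.074 without D-galactose (edgeR adjusted p = 8.99e-05) and by -0.15 ± 0.073 with it (0.0958), where it passed without SFr_Dgal replicate 3 (-0.25, 0.00862). Whether the fraction difference in Pgam2 itself changed with D-galactose was not tested. Gpi1 differed by 0.0082 (95% interval -0.076 to 0.092) and 0.0084 (-0.076 to 0.092), and Pkm by 0.017 (-0.051 to 0.085) and 0.036 (-0.032 to 0.10), without and with D-galactose. Hk1 differed by 0.074 with D-galactose (edgeR adjusted p = 0.0788) and passed without NSFr_Dgal replicate 3 (0.0421) or with unscaled library totals (0.0144).

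Of 19 other glycolytic genes listed, 17 had a row in the table and 10 had enough counts to be tested. With D-galactose 4 of the 10 rose and none fell, against 25.1% of all genes called: Gapdh (0.17), Eno1 (0.14), Eno2 (0.49) and Pfkp (0.23, all log2 differences from control). With SFr alone 3 rose, Pfkl (0.13), Pfkp (0.64) and Eno2 (0.39), and Ldhb fell (-0.27), a share no higher than the 43.1% of all genes called. At the phosphofructokinase and enolase steps Pfkl, Pfkp and Eno2 thus rose with SFr while Pfkm and Eno3 fell, and Eno1 differed by 0.01. Per length Pfkm held 76.3% ± 0.405 of the phosphofructokinase level in SFr, against 81.7% ± 0.635 in control (SD, n = 3). Triose-phosphate isomerase (Tpi1), Pgk1 and Bpgm were not called with D-galactose or with SFr.

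Genes that feed and steer the pathway are read against the 25.1% of all genes called with D-galactose and the 43.1% called with SFr. The regulators and the genes of pyruvate entry had fewer calls with D-galactose than that share, and pyruvate entry was near it with SFr. Of 8 glucose and lactate transporter genes, 5 rose with D-galactose and none fell, among them Slc2a4, the insulin-responsive glucose transporter (from 4.83 to 7.79 CPM, 0.69 ± 0.10), Slc2a3 (0.67) and Slc2a1 (0.21). With SFr 4 of the 8 rose, led by Slc2a1, the basal glucose transporter (147.2 to 247.4 CPM, 0.75 ± 0.044), and the lactate transporter Slc16a1 (0.55), and Bsg, the chaperone of the lactate transporters, fell (-0.18). Of 6 tested regulators, Pfkfb3, which makes the activator of phosphofructokinase, rose with D-galactose (0.37 ± 0.055), and with SFr Fbp2, the muscle fructose bisphosphatase that runs the opposite reaction, fell (-1.68) from a low level, 0.589 to 0.179 CPM. Of 14 hypoxia targets outside glycolysis, 7 rose with D-galactose and none fell, led by Adm (0.84), while with SFr 8 rose, among them Egln3 (0.70), and 5 fell, among them Car9 (-0.36). Of 9 genes of galactose use, Galt, the uridylyltransferase of the Leloir pathway (0.43), and Pgm2 (0.19) rose with D-galactose and Galk1, the galactokinase (-0.18), and Sord (-0.16) fell. Of 11 glycogen genes 6 rose and 2 fell with D-galactose. Pdk4, the kinase that limits pyruvate entry into mitochondria, rose with D-galactose (0.26) and with SFr (0.69), among 13 genes of pyruvate entry of which 2 rose with D-galactose and 4 rose and 2 fell with SFr.

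Across the 10 group means of log2 CPM the members formed sets that moved alike or against each other. Hk1, Pkm and Aldoa were closest (Pearson r = 0.97 for Hk1 with Pkm and 0.95 for Aldoa with Pkm), and Gpi1 stood near them (0.93 with Hk1). Pgam2 and Eno3 ran together (0.91), with Pfkm beside them (0.80 and 0.81). Hk2 ran against Eno3 (-0.90) and Pgam2 (-0.87), while Ldha had no coefficient above 0.54 with another member. These are descriptions over 10 points that share D-galactose, SFr and the libraries' scaling, and the SFr groups stand at the ends of the range for Hk2, Eno3 and Pfkm.

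**Figure D5:**
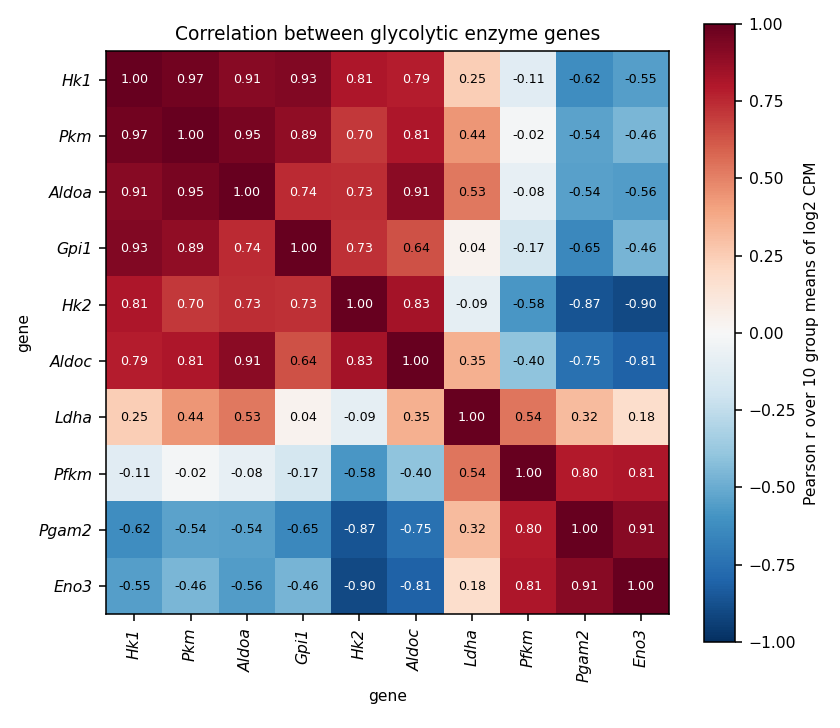
Pearson correlation (colour and printed value) between the group means of log2 CPM of each pair of glycolytic enzyme genes over the 10 groups, with genes on both axes. Hk1, Pkm, Aldoa, Gpi1, Hk2 and Aldoc correlate positively with each other, Pfkm, Pgam2 and Eno3 do likewise, and Hk2 with Eno3 is the lowest value at -0.90.

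The order of the groups by mean level differed between the genes. SFr_Dgal was the highest group for Hk1, Hk2, Gpi1, Aldoa, Aldoc and Pkm, RGW for Pfkm, Pgam2 and Eno3, and Dgal for Ldha. The lowest group was SFr for Pfkm, Pgam2 and Ldha, SFr_Dgal for Eno3, Rb2 for Hk2, Gpi1 and Pkm, control for Hk1 and Aldoa, and NSFr for Aldoc. The highest mean was 2.02 times the lowest for Hk2, 2.06 times for Aldoc, 1.62 times for Eno3 and 1.13 times for Ldha. For Hk2 the libraries of SFr_Dgal (254.1 CPM), SFr (203.0 CPM) and the next group, RGW_Dgal (168.2 CPM), did not overlap. For Eno3 the lowest groups, SFr (644.1 CPM) and SFr_Dgal (607.4 CPM), overlapped each other and lay apart from Rb2_Dgal (798.9 CPM), the next above. For Aldoc, Pgam2 and Ldha every group overlapped the next in the order, while some groups that were not neighbours stood apart.

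Among 9626 genes with a mean of at least 5 CPM, the genes whose 10 group means ran most like those of Hk2 were Rusc2 (r = 0.99), Hsd3b7 (0.99) and Slc22a4 (0.99). For Eno3 they were Scn10a (0.99), Traf4 (0.99) and Neurl1a (0.99), and for Aldoc Tceanc2 (0.98), Zfp52 (0.98) and Phlda3 (0.97). The closest genes to the others were Speg for Hk1 (0.98), Atg9b for Gpi1 (0.97), Nlrx1 for Pfkm (0.97), Csrp3 for Aldoa (0.98), Tbccd1 for Pgam2 (0.97), Zfp365 for Pkm (0.97) and Bfar for Ldha (0.96). Each is the best of many comparisons over 10 points and is given as a description.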

How the data were processed

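Poly(A) RNA of 30 cultures was sequenced as directional MGIEasy libraries on a DNBSEQ instrument, per the labels' protocols. Per the submitters' processing notes, RSEM 1.3.3, STAR 2.7.9a, Trim Galore 0.6.10 and FastQC 0.11.9 were used with builds GRCm38 and mm10. Neither the annotation nor the strand setting is given in the sources used here. What was deposited are the authors' RSEM expected counts per gene, not normalized, of which 19.4% were not whole; they were rounded. edgeR 4.0.16 (R 4.3.3) fitted a quasi-likelihood model with robust fitting to the 10 groups and 30 libraries, after filterByExpr and TMM scaling (common dispersion 0.00181). A standard error is the size of the log2 fold change over sqrt(F). Differences were tested against the spread between cultures that the design text calls biological replicates; their separate origin is not described further, so p-values measure the spread between these libraries. The 10 genes, the other lists and the rule for named genes (all members, listed pathway genes, and the 3 closest genes of each member by Pearson r) were chosen with earlier results of these data known. In data simulated for D-galactose against control (11974 genes), 50 genes were changed at each size, fewer than were called in the real data. The test recovered 6% of genes for a change of 1.1 times, 60% for 1.2 times, 92% for 1.5 times and 98% for 2 times. There were 9 false calls. Alternatives were a fit that leaves out each library, a fit of just the groups in question, a block for the replicate number, DESeq2 1.42.0, RLE scaling, unscaled totals and no filter. Coordinates came from GENCODE vM21, where 16021 of the 16025 symbols matched.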

Additional observations from a re-analysis of the deposited data

How the results depend on the processing

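Over all members, comparisons and alternatives, 2409 of 2480 values kept their side of the threshold, 47 lost the call and 24 gained it. None of the 2480 that was called in either fit changed sign, while 97 that were called in neither did. Fitted with only the groups compared, the calls for NSFr against control and for RGW against control each fell to 0 of the 10 genes. With each library left out in turn the number of genes called ran from 6 to 9 for D-galactose against control, from 0 to 2 for NSFr against control, from 1 to 2 for RGW_Dgal against Dgal, from 0 to 2 for NSFr_Dgal against Dgal, from 3 to 5 for NSFr_Dgal against NSFr and from 0 to 1 for the interaction with SFr. The low ends for NSFr came without control replicate 2 (NSFr against control) and Dgal replicate 2 (NSFr_Dgal against Dgal). The added calls came without Dgal replicate 1 (RGW_Dgal against Dgal) and control replicate 3 (the interaction). With mitochondrially encoded genes left out of the totals the share of counts in NSFr_Dgal was 1.07% in place of 1.05%. With the longest transcript as length the control shares were 0.148% for Aldoc, 50.7% for Eno3, 34.2% for Hk2, 97.4% for Ldha and 74.8% for Pfkm. Several calls near the threshold, among them those of Pfkm and Eno3 for Dgal against control, were lost when 1 or another library was left out. These libraries are given beside each result, and the cause was not tested. In simulated data, where 50 genes were changed at each size, a change of 1.1-fold was seldom recovered (6%). In the real comparison of Dgal with control 25.1% of all genes were called, which makes the adjusted threshold less strict. The simulated rate thus cannot be carried over to Ldha or Pgam2, though small differences in them may still go uncalled.

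With the replicate number as a block the number of genes called for D-galactose against control was 8, as without it. The replicate block added Ldha for SFr against control (adjusted p = 0.0454) and Pkm for NSFr against control (0.0496), giving 9 and 3 genes, and changed no other call of a member. Same-numbered libraries did not pair: 8 of 135 same-numbered pairs had a correlation of deviations above 0.1, the median was 0.00386, and 10 of 30 libraries correlated best with their own number. Scaling moved the median of all genes by at most 0.053 on the log2 scale.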
